A study of Mus musculus with 6 samples.

Results

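The genes described are 10 chemokine ligands, Ccl2, Ccl5, Ccl17, Cxcl1, Cxcl2, Cxcl9, Cxcl10, Cxcl12, Cxcl15 and Cx3cl1, of 18193 mouse genes with a probe set of their own on the array. They were taken by name, with 19 probe sets between them, and each is given by whichever of its probe sets was brightest on average across the 6 arrays (mean log2). The study compared 2 populations of mouse lung cells, with 3 biological replicates of each and an Affymetrix 3' expression array for every replicate. On the E18 side were Muc1+/Pdpn+ cells sorted from lungs of embryonic day 18. The series names them bipotent progenitors, since both kinds of alveolar epithelial cell, the flat type I and the surfactant-making type II, descend from them. On the adult side were Lyz2+/EpCAM+ cells of adult lungs, named type II cells (ATII) by the series. Age and sorted population differ together, so they cannot be told apart. Strain, sex, pooling of animals and how Lyz2 and EpCAM were detected in the sort are not given in the sources used here, and p-values measure only the spread between these samples. Array values of a group are given in the order of replicates 1, 2 and 3.

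Chemokines are small secreted proteins that bind to matrix sugars and draw cells up a gradient by engaging receptors coupled to G proteins. The letters in their names follow the spacing of conserved cysteines near the N terminus, adjacent in the Ccl group, separated by 1 residue in the Cxcl group and by 3 in Cx3cl1. In the lung, epithelial cells, macrophages, fibroblasts and lymphocytes all make some of them, and many are switched on by NF-kappaB or by interferon.

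Of the 10 ligands, Ccl5 and Cxcl9 were higher in the adult arrays, Cxcl12 was lower, and 7 did not pass the test. The difference was largest for Ccl5, with log2 signals of 13.75 ± 1.11 in adult and 6.40 ± 0.83 in E18 arrays (SD, n = 3), a 163-fold change. Cxcl12 had 6.89-fold less signal in adult, with 6.87 ± 0.38 against 9.65 ± 0.40. The neutrophil attractants Cxcl1, Cxcl2 and Cxcl15 gave strong signals on all 6 arrays and did not pass. A call here is an adjusted p under 0.05 in limma's two-sided test over 13335 genes, and differences are log2 adult minus E18. In that fit 5.98% of all genes tested were called, 1.41% higher and 4.57% lower in the adult arrays.

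For 5 of the 10 ligands every array of one group lay above every array of the other, 3 higher and 2 lower in adult, as was so for 28.9% of all genes tested. The median difference over the 10 was 0.41, beside -0.17 over all genes tested. Every ligand reached the detection floor, the 40th percentile of its array, on at least 3 arrays, and Cxcl9 did so through the adult arrays alone. In bulk RNA, fewer cells making a ligand and less RNA per cell cannot be told apart.

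**Figure D1:**
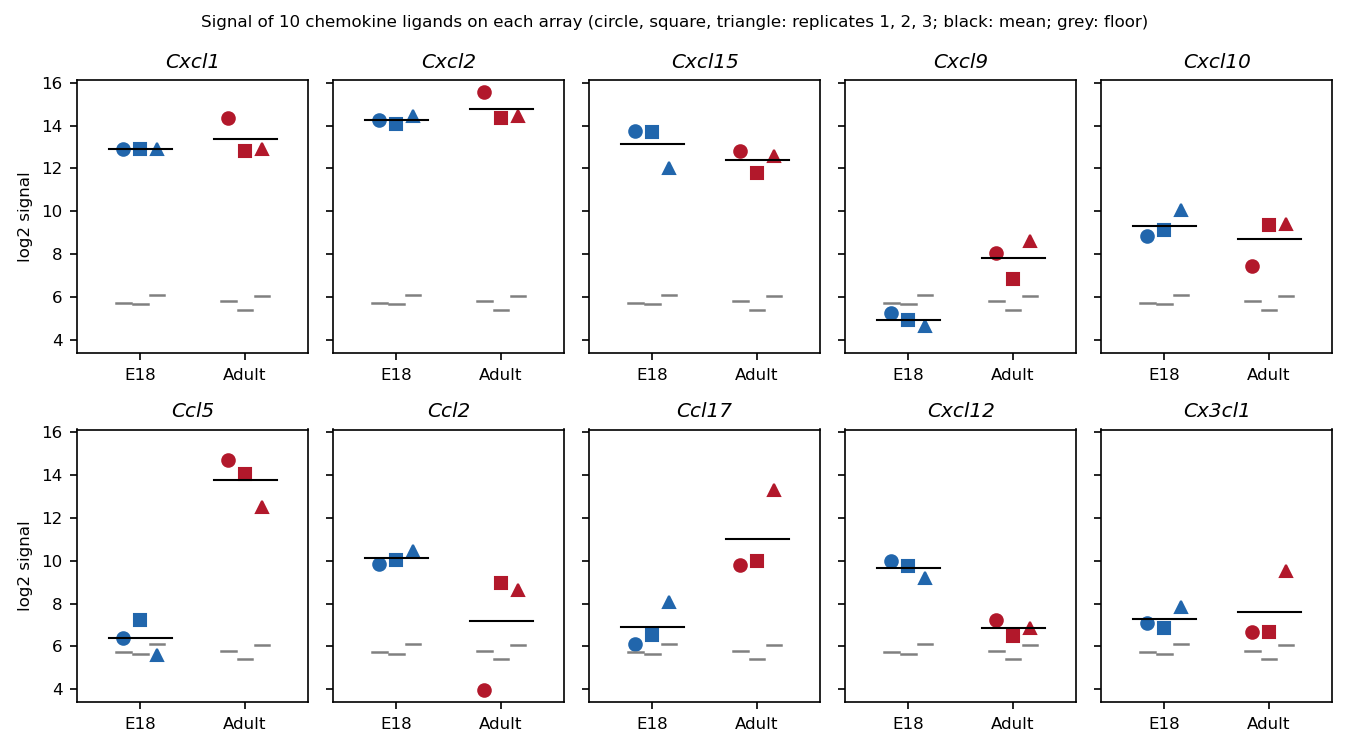
Log2 signal of the 10 ligands on each of the 6 arrays, E18 in blue and adult in red, with the group mean as a black line and the floor of each array in grey. Ccl5, Ccl17 and Cxcl9 lie higher in all adult arrays and Ccl2 and Cxcl12 lower, and a single adult array stands apart for Ccl2 (replicate 1) and Cx3cl1 (replicate 3).

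Facts of the arrays bear on these values. Correlations across genes were 0.921 to 0.983 among E18 arrays, where replicates 1 and 2 were closest, and 0.777 to 0.913 among adult arrays. The third replicates of both groups carried poly-A spike-in signals of 13.75 and 14.29 (median log2), against 5.43 to 8.14 on the other arrays, so differences are also given for replicates 1 and 2 and for replicate 3. Of 8 type II cell genes tested 0 were called by limma, and 1 had an unadjusted p under 0.05, as had 21.6% of all genes tested. Their differences ran from -2.25 for the transcription factor Etv5 to 0.54 for the surfactant protein Sftpd, 4 below 0 and 4 above, with a median of 0.24. Sftpc, the surfactant protein that defines type II cells, stood at 14.50 to 14.67 in adult and 13.90 to 14.17 in E18 arrays. The median of 5 epithelial genes, taken as departures from each gene's own mean, was 0.70, 0.70 and 0.93 in E18 replicates 1, 2 and 3. In adult replicates 1, 2 and 3 it was -1.86, -1.87 and 1.90, and the median difference of the list was -1.56. The median of 6 airway genes was -0.06, -0.44 and -0.34 in E18 and -0.93, -0.31 and 2.11 in adult arrays. Markers of other cell types were present, and the lists with calls are given beside ligands that moved the same way. Their shared direction follows from that choice and tests nothing. The ligands were Ccl5, Ccl17, Ccl22 and Cxcl12, of which Ccl17 was not called, and no list is set beside Cxcl9.

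Cxcl1 and Cxcl2 attract neutrophils through the receptor Cxcr2, lie side by side in the genome, and are classic targets of NF-kappaB. RefSeq's promoter table (GRCm38.p6) held 8 of the 10 ligands, all but Ccl2 and Ccl5. The 250 bases before the start of each gene are shown for this pair because the signals of their main probe sets took the same course over the arrays. Of the other Cxcl1 sets, 1441855_x_at was also highest in adult replicate 1 (12.76), and 1419209_at was not (11.78). Capitals mark matches to GGGNNNTTCC, a form of the kappaB site, searched on both strands, and a palindromic site is matched on both.
Cxcl1, chr5:90890995-90891244, plus strand: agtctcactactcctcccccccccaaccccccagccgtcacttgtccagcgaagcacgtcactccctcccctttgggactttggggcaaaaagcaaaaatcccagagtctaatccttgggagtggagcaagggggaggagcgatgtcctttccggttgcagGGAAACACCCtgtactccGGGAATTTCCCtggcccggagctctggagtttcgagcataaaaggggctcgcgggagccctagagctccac
Cxcl2, chr5:90903649-90903898, plus strand: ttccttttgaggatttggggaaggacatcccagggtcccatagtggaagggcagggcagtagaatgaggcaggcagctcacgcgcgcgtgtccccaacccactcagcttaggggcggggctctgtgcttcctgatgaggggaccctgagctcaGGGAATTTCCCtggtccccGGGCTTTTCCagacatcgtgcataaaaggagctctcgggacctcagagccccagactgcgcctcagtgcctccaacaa
The longest run the pair shares in this window is GGGAATTTCCCTGG, 14 bases, which starts 71 bases before the start of Cxcl1 and 97 before that of Cxcl2. The motif was in 4.65% of all 32851 windows of this length, and in 3 of the 8 ligands, Cxcl1, Cxcl2 and Cxcl10. A match is a string of letters and not a shown binding site.

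Log2 signals of Cxcl2 were 14.25, 14.08 and 14.46 on the E18 arrays and 15.55, 14.36 and 14.46 on the adult arrays. Adult replicate 1 was the highest array, and the others lay within the same narrow band in both groups. Cxcl2 differed by 0.52 (SE 0.37, adjusted p = 0.457). Replicates 1 and 2 alone gave 0.79, and replicate 3 alone 0.0023.

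Cxcl1 stood at 12.91, 12.92 and 12.88 on the E18 arrays and at 14.36, 12.83 and 12.92 on the adult arrays. Again adult replicate 1 alone was high, and the groups overlapped, with a difference of 0.47 (SE 0.43, adjusted p = 0.584). Without adult replicate 1 it was -0.03. Nfkbia, the NF-kappaB inhibitor that NF-kappaB itself induces, was also highest in adult replicate 1, at 15.54 against 14.11 to 14.55 on the other arrays, and did not pass (0.65, adjusted p = 0.314). Whether these values share a source was not tested.

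The probe sets of Cxcl1 did not go the same way. The main one, 1457644_s_at, has the suffix that Affymetrix gives to sets shared by several transcripts. The set 1419209_at read 12.23, 12.24 and 12.76 in E18 and 11.78, 11.30 and 11.86 in adult arrays. In that set every adult array lay below every E18 array, but the difference of -0.76 did not pass (adjusted p = 0.232 in a fit over 28161 probe sets). A direction for Cxcl1 therefore depends on the probe set, and with its probe sets averaged the difference was -0.04.

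Cxcl15, also called lungkine, is a neutrophil attractant made by lung epithelium, and its gene lies next to Cxcl1. Its signals were 13.74, 13.68 and 12.04 on the E18 arrays and 12.81, 11.78 and 12.56 on the adult arrays. E18 replicate 3 fell within the adult range, and the groups overlapped (-0.77, SE 0.52, adjusted p = 0.441). Replicates 1 and 2 alone gave -1.41, and replicate 3 alone 0.52. Its other probe set gave -0.69 (adjusted p = 0.445). Cxcl3, the neighbour on the other side, was 8.27 in adult and 9.15 in E18 arrays on average and did not pass either (adjusted p = 0.342). Cxcr2, the receptor of Cxcl1 and Cxcl2, is also a marker of neutrophils. It was 7.02, 7.27 and 9.83 in E18 and 10.52, 11.26 and 6.49 in adult replicates 1, 2 and 3 (1.39, adjusted p = 0.586). Of 5 neutrophil genes tested 0 were called by limma and 0 had an unadjusted p under 0.05 (21.6% over all genes), and their median departures were 1.90, 0.87 and -2.89 in adult replicates 1, 2 and 3.

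**Figure D2:**
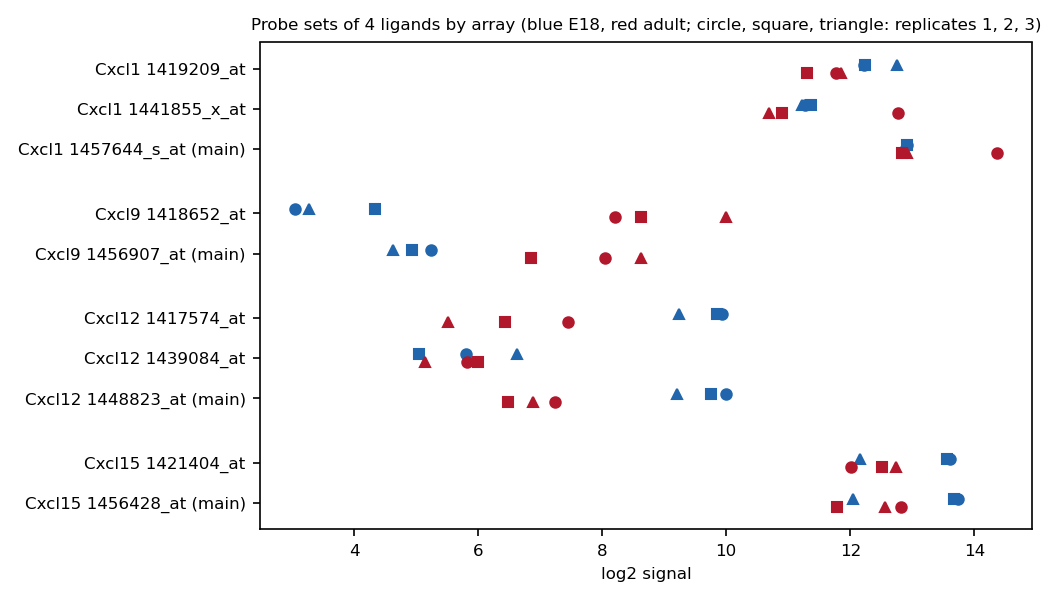
Log2 signal of each tested probe set of Cxcl1, Cxcl9, Cxcl12 and Cxcl15, E18 arrays in blue and adult arrays in red. The differences of both sets of Cxcl9 and of Cxcl15 have the same sign, while those of Cxcl1 differ in sign and 1 of 3 sets of Cxcl12 shows no separation.

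Cxcl9 and Cxcl10 are ligands of Cxcr3, the receptor that guides activated T cells and natural killer cells, and both are known as genes induced by interferon gamma. They are close neighbours, with 1 protein-coding gene, Art3, between them. Their windows are shown because this pair, with a shared receptor, had different values. Capitals mark GGGNNNTTCC as above and, 213 bases before the start of Cxcl10, the match to GAAANNGAAA, the core of the interferon-stimulated response element.
Cxcl10, chr5:92348890-92349139, minus strand: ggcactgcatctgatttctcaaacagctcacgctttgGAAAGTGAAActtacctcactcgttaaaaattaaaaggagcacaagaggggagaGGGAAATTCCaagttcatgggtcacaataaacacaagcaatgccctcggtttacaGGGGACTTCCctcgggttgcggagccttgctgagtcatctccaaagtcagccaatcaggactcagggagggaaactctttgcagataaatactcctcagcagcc
Cxcl9, chr5:92328080-92328329, minus strand: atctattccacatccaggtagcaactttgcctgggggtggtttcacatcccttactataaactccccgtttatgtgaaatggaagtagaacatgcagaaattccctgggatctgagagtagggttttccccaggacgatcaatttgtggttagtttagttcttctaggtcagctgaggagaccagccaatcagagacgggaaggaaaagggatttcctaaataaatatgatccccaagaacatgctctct
The GAAANNGAAA core was in 2.98% of all windows and in 1 of the 8 ligands. TTCNNNGAA, the form bound by STAT factors, was in 7.02% of all windows and, of the 8 ligands, in Ccl17 alone, as TTCTTTGAA. The window of Cxcl9 held none of the 3 motifs, which says only that these letters are not in it. The longest run it shares with Cxcl10 is CAGCCAATCAG, 11 bases, 68 bases before its start and 57 before that of Cxcl10.

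Cxcl9 signals were 5.24, 4.94 and 4.63 at E18, below the floor each time, and 8.05, 6.85 and 8.62 on the adult arrays. All adult arrays lay above all E18 arrays. The difference was 2.90 (SE 0.56, adjusted p = 0.0277), or at least 4.03-fold with the E18 arrays set to their floors. Replicates 1 and 2 alone gave 2.36, and replicate 3 alone 3.99. The other probe set, 1418652_at, gave 3.05, 4.34 and 3.27 in E18 and 8.21 or more on each adult array, a difference of 5.39 (adjusted p = 0.00637). That set too lay under the floor in all E18 arrays and reached it through the adult arrays alone, so 5.39 has no measured size. The call of the main set was lost without adult replicate 1 (adjusted p = 0.0815), E18 replicate 1 (0.12), E18 replicate 2 (0.131) or E18 replicate 3 (0.0775), and with the replicate number as a block (0.0595).

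Cxcl10 did not follow Cxcl9. It stood at 8.82, 9.11 and 10.05 on the E18 arrays and at 7.46, 9.34 and 9.38 on the adult arrays, so the groups overlapped. The difference was -0.60 (SE 0.60, adjusted p = 0.612), and without adult replicate 1, the lowest array, it was 0.03. The difference between the pair was not tested.

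Cxcr3 rose by 2.89 (SE 0.33, adjusted p = 0.00669), from 7.11, 6.88 and 7.45 in E18 to 9.81, 9.99 and 10.31 in adult replicates 1, 2 and 3. The call was lost without E18 replicate 1 (adjusted p = 0.0564) or E18 replicate 2 (0.055). Ifng, the gene for interferon gamma, named after its value was seen, was under the floor in all E18 arrays, at 4.79, 3.61 and 2.73, and stood at 9.46, 8.77 and 6.36 on the adult arrays. The difference was 4.48 (SE 0.91, adjusted p = 0.0331). Raised to the floor wherever a signal lay below it, the values gave 2.36, or at least 5.15-fold, which did not pass (adjusted p = 0.108). Ifng reached the floor through the adult arrays alone, and adult replicate 3, its lowest adult array, was the highest for Cxcl9. The call of Ifng was lost without any 1 of the other 5 arrays (adjusted p = 0.0857 to 0.137) and after quantile normalization (0.0515).

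Ccl5, also called RANTES, is a product of T cells and natural killer cells that acts on receptors such as Ccr1 and Ccr3. It was 6.40, 7.23 and 5.58 at E18, below the floor on the third array, and 14.68, 14.06 and 12.52 on the adult arrays. All adult arrays lay far above all E18 arrays, and replicate 3 was the lowest in each group. The difference was 7.35 (SE 0.64, adjusted p = 0.00303), with 7.55 from replicates 1 and 2 and 6.93 from replicate 3. It kept its call in all 17 alternative fits, with differences from 6.88 to 7.96.

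Markers of T and natural killer cells were higher in the same arrays by their median, but not each of them on each array. Of 11 tested 4 rose, Klrd1, Cd2, Prf1 and Ncr1, 0 fell, and 7 were not called, and the median difference was 3.84. The difference was above 0 for 10 of the 11, and Cd8a had -0.08. Nkg7 and Gzmb, not called, were lower in adult replicate 3 (7.43 and 6.97) than in E18 replicate 3 (7.49 and 9.95). Klrd1 kept its call with any 1 array left out, Cd2 lost it without E18 replicate 1 (adjusted p = 0.0663) or E18 replicate 2 (0.064), and Prf1 and Ncr1 lost it without any 1 array other than adult replicate 3. Prf1 lost it in 12 of 17 alternatives in all, among them probe sets averaged (1.76, adjusted p = 0.0615), and Ncr1 in 10, among them signals below the floor raised to it (1.14, adjusted p = 0.25). Cd3d, Cd3e and Ncr1 were under the floor in all E18 arrays. The log2 of the list's summed signal was 10.26 to 10.94 at E18 and 12.00 to 15.60 in adult. As departures from each gene's own mean, the list's median was 2.83, 3.14 and -0.43 on the 3 adult arrays, where Ccl5 stood at 4.60, 3.98 and 2.44. In replicate 3 alone the list's difference was 1.27, beside 6.93 for Ccl5. Of 7 B and plasma cell markers tested 3 rose, Jchain, Igha and Mzb1, 0 fell, and 4 were not called, with a median of 3.79, and only Mzb1 of these kept its call with any 1 array left out. The log2 of their summed signal was 9.73 to 12.05 in E18 and 15.75 to 15.90 in adult arrays. The part of these cells in the Ccl5 signal was not tested.

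The 3 genes whose course over the arrays was closest to that of Ccl5, by root mean square difference of centred log2 values over the 6 arrays, were Fabp1 (0.69), Klrd1 (1.08) and Ifi202b (1.15). For Cxcl9 they were Endog (0.31), Akr1c13 (0.37) and Dbp (0.40). For Cxcl12 they were Itga8 (0.10), Clca3a1 (0.15) and Dcbld1 (0.16).

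Of the receptors of Ccl5, Ccr1, carried by monocytes and granulocytes, was at 11.39, 11.12 and 12.38 in E18 and 11.30, 11.91 and 10.60 in adult arrays and did not pass (-0.36, adjusted p = 0.697). Ccr3 was low on all arrays, at 1.41 to 2.65, and was not tested. The neighbours of Ccl5 in the genome, taken after their values were seen, are the chemokine genes Ccl9, Ccl6, Ccl3 and Ccl4. Of these 4, 0 were called by limma and 1 had an unadjusted p under 0.05, beside 21.6% over all genes, and their differences were 0.46, 0.24, -1.11 and -0.14.

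Ccl2, the monocyte attractant that acts on Ccr2, was 9.84, 10.06 and 10.43 on the E18 arrays and 3.97, 8.97 and 8.62 on the adult arrays. Every adult array was below every E18 array, and adult replicate 1 lay under the floor, far from the others. The difference of -2.92 (SE 1.21) did not pass (adjusted p = 0.217). Without adult replicate 1 it was -1.32 (adjusted p = 0.0877). Ccr2 itself was at 12.26, 11.99 and 12.90 in E18 and 13.22, 13.05 and 12.80 in adult arrays (0.64, adjusted p = 0.299).

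The genes that follow Ccl2 in the genome, again taken after their values were seen, are Ccl7, Ccl11, Ccl12 and Ccl8. Ccl12, a monocyte attractant of mice that shares Ccr2, was 9.43, 9.42 and 9.72 in E18 and 6.63, 7.57 and 6.56 in adult arrays. It fell by 2.60 (SE 0.39, adjusted p = 0.0127), without overlap, and the call was lost without E18 replicate 1 (adjusted p = 0.0857) or E18 replicate 2 (0.0822). Ccl7 (-1.51, adjusted p = 0.21), the eosinophil attractant Ccl11 (-3.15, adjusted p = 0.173) and Ccl8 (1.43, adjusted p = 0.186) did not pass. Of 11 macrophage genes tested 0 were called by limma and 5 had an unadjusted p under 0.05, beside 21.6% over all genes. Their median was -0.51, with 7 below 0 and 4 above. They ran from -1.50 for the scavenger receptor Marco to 2.51 for the chitinase-like Chil3.

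Ccl17, which draws Ccr4-bearing T cells and is known from dendritic cells and alternatively activated macrophages, was 6.10, 6.54 and 8.07 at E18 and 9.81, 9.97 and 13.29 in adult. The groups did not overlap, and the third replicate was the highest of each group. The difference was 4.12 (SE 0.97) and just missed the threshold (adjusted p = 0.0518). It came to 3.57 over replicates 1 and 2, where it passed (adjusted p = 0.00497), and 5.23 in replicate 3. With the third replicates as a batch term the adjusted p was 0.00686, and without adult replicate 3 it was 0.0132 with a difference of 2.99. Over all genes 2996 were called in replicates 1 and 2 alone and 2770 without adult replicate 3, against 798 in the main fit. Ccl17 did not pass without adult replicate 1 (adjusted p = 0.0788), adult replicate 2 (0.109), E18 replicate 1 (0.196) or E18 replicate 2 (0.189). Nor did it with E18 replicates 1 and 2 averaged (0.191), and it passed in 8 of 17 alternatives in all.

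Ccl22, the other ligand of Ccr4, took the same course. It was 6.03, 5.52 and 8.22 in E18 and 10.29, 10.78 and 13.81 in adult replicates 1, 2 and 3, with no overlap. It rose by 5.04 (SE 1.04, adjusted p = 0.0341). The call was lost without adult replicate 1 (adjusted p = 0.0571), adult replicate 2 (0.0997), E18 replicate 1 (0.145) or E18 replicate 2 (0.144). Ccr4 ranged from 4.46 to 6.33 over the arrays and was not tested.

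Dendritic cell markers were higher in the adult arrays as well by their median, most in replicate 3, but not each of them. Of 7 tested 3 rose, 0 fell, and 4 were not called, and the median difference was 3.48. The 3 that rose were Ccr7, the receptor of migrating dendritic cells and naive T cells (5.51, SE 0.68, adjusted p = 0.00868), Flt3, a receptor of dendritic cell precursors (3.80, adjusted p = 0.0213), and the integrin chain Itgae (3.66, adjusted p = 0.0459). The 4 not called were Cd209a (3.48), Batf3 (1.50), Siglech (0.38) and Zbtb46 (0.29). Among the adult arrays Ccr7, also counted with the receptors, was highest in replicate 2 (11.22), and Siglech was lowest in replicate 3 (5.52). Ccr7 kept its call with any 1 array left out. Flt3 lost it without adult replicate 2 or any 1 E18 array (adjusted p = 0.0551 to 0.107), and Itgae without adult replicate 1 or any 1 E18 array (0.0846 to 0.175). Itgae also lost it with probe sets averaged (2.96, adjusted p = 0.13) and without the intensity trend (0.0575). The log2 of the list's summed signal was 9.67 to 10.10 in E18 and 12.41 to 14.21 in adult arrays. Its median departure was 0.86, 0.60 and 2.90 on the 3 adult arrays, where Ccl17 stood at 0.85, 1.00 and 4.33 and Ccl22 at 1.18, 1.67 and 4.71. The part of these cells in the Ccl17 and Ccl22 signals was not tested.

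Cx3cl1, or fractalkine, is anchored in the membrane by a mucin stalk, is cut free by Adam10 and Adam17, and has Cx3cr1 as its receptor. Its gene lies between Ccl22 and Ccl17. It was 7.09, 6.86 and 7.84 on the E18 arrays and 6.67, 6.66 and 9.51 on the adult arrays. Adult replicate 3 alone was high, and the other adult arrays were below all E18 arrays. The difference of 0.35 (SE 0.79) did not pass (adjusted p = 0.835), while replicates 1 and 2 alone gave -0.31 and replicate 3 alone 1.67. Adult replicate 3 was also the adult array with the highest epithelial genes, such as Epcam at 10.68 against 7.85 and 8.50. It had the highest airway genes too, such as Foxj1 at 11.66 against 7.72 and 6.88, and these relations were not tested. The other 3 probe sets of Cx3cl1 were under the floor on 5 or 6 of the 6 arrays. Cx3cr1, a marker of monocytes, was 11.18 ± 0.16 at E18 and stood at 11.18, 12.48 and 9.11 in adult (-0.25, adjusted p = 0.877).

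**Figure D3:**
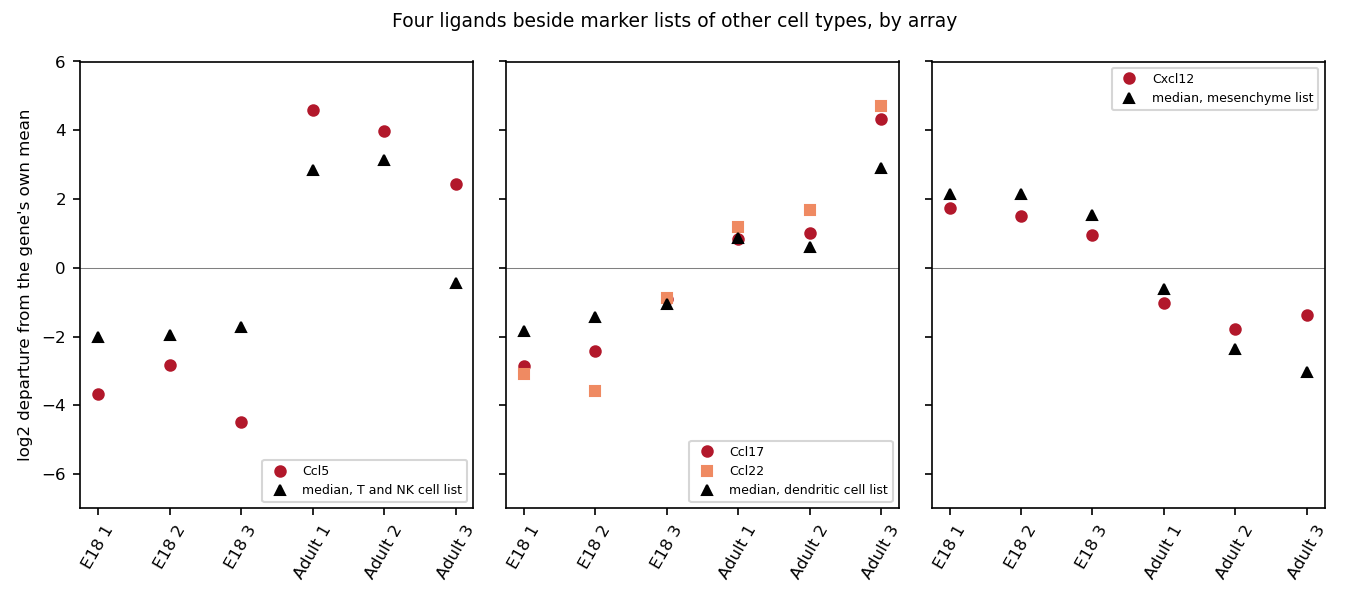
Departures of Ccl5, Ccl17, Ccl22 and Cxcl12 from their own mean log2 signal on each array, beside the median departure of a marker list of another cell type, chosen to move the same way. Adult replicate 3 is the lowest adult array for Ccl5 (2.44) and the T and NK cell list (-0.43) and the highest for Ccl17 (4.33), Ccl22 (4.71) and the dendritic cell list (2.90).

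Cxcl12, the stromal factor that holds progenitor cells in their niches through Cxcr4, was 9.99, 9.76 and 9.21 at E18 and 7.24, 6.48 and 6.88 in adult, above the floor on each array. The groups did not overlap and the spread within each was small. It fell by 2.78 (SE 0.38, adjusted p = 0.0104), with -3.01 over replicates 1 and 2 and -2.32 for replicate 3. The probe set 1417574_at gave -3.21 (adjusted p = 0.0178), and the dim set 1439084_at, under the floor on 2 arrays, gave -0.18 (adjusted p = 0.903). The call was lost without E18 replicate 1 (adjusted p = 0.0844) or E18 replicate 2 (0.0779).

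The receptors of Cxcl12 had differences of opposite sign. Ackr3, which binds Cxcl12 and clears it, was 11.66, 11.61 and 9.92 in E18 and 8.78, 7.81 and 7.09 in adult replicates 1, 2 and 3. It fell by 3.17 (SE 0.61, adjusted p = 0.0277), and the call was lost without adult replicate 2 (adjusted p = 0.108), E18 replicate 1 (0.139) or E18 replicate 2 (0.138). Cxcr4, the signalling receptor, also carried by lymphocytes and neutrophils, was 9.63, 9.33 and 10.60 in E18 and 13.46, 12.20 and 9.31 in adult arrays. Adult replicate 3 lay below all E18 arrays, and Cxcr4 did not pass (1.80, adjusted p = 0.329).

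Markers of 4 cell types, mesenchymal, endothelial, mesothelial and type I, were lower by median in the adult arrays, where Cxcl12 was lower too. Not each of them was lower on each adult array. In adult replicate 3 mesothelial Krt19 (12.78) lay above all E18 arrays (11.88 to 12.45), and endothelial Kdr (11.10) above E18 replicate 3 (10.21). Neither was called. Of 9 mesenchymal markers tested 8 fell, 0 rose, and 1 was not called, with a list median of -3.96. The log2 of the summed signal was 15.03 to 15.68 in E18 and 10.89 to 13.26 in adult arrays. Among them were Mfap4, a microfibril protein (-7.55), and Tcf21, a fibroblast transcription factor (-4.44, adjusted p = 0.0046). Tcf21 kept its call with any 1 array left out, and Mfap4 lost it without adult replicate 2 or any 1 E18 array (adjusted p = 0.0527 to 0.0857). Of 8 endothelial markers tested 3 fell, 0 rose, and 5 were not called, with a median of -2.88 and a summed signal of 12.29 to 14.04 in E18 and 11.08 to 11.87 in adult arrays (log2). Of 5 mesothelial markers tested 3 fell, Msln, Upk3b and Wt1, 0 rose, and 2 were not called, with a median of -2.46 and a summed signal of 13.04 to 13.51 in E18 and 9.75 to 12.84 in adult arrays. Each of these endothelial and mesothelial calls was lost with at least 1 of the arrays left out. The mesothelial Wt1 and the endothelial Tie1 were under the floor in all adult arrays and reached it through the E18 arrays alone. With signals below the floor raised to it neither passed (Wt1 -1.44, adjusted p = 0.0584, Tie1 -2.29, adjusted p = 0.0801).

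Type I cell markers were lower as well. Of 8 tested 4 fell, Akap5, Clic5, Cav1 and Pdpn, 0 rose, and 4 were not called, with a median of -2.73. Pdpn was used to sort the E18 cells. Their summed signal was 15.78 to 16.19 in E18 and 13.76 to 14.27 in adult arrays (log2). Cav1, the coat protein of caveolae, fell by 3.46 (adjusted p = 0.00374), and Akap5 and Cav1 kept their calls with any 1 array left out, while Clic5 and Pdpn did not. The part of these cells in the Cxcl12 signal was not tested.

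**Figure D4:**
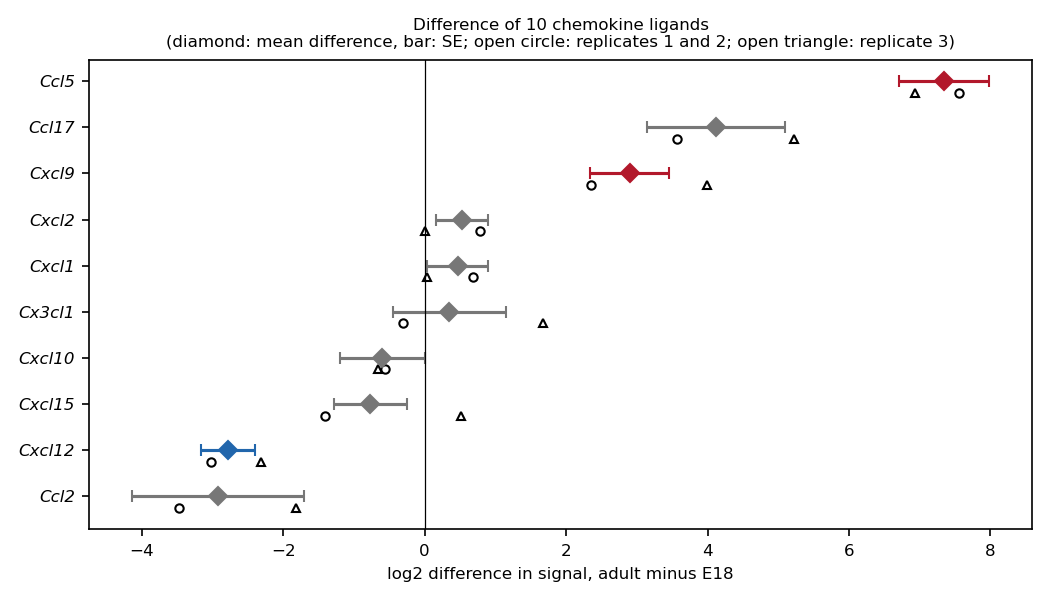
Log2 difference of each ligand, adult minus E18, as a diamond with its SE, red for higher, blue for lower and grey for not passed, with open symbols for replicates 1 and 2 (circle) and replicate 3 (triangle). Ccl5 (7.35), Cxcl9 (2.90) and Cxcl12 (-2.78) were called, and their open symbols lie on the same side of 0 as the diamond, while those of Cxcl15 (-1.41 and 0.52) and Cx3cl1 (-0.31 and 1.67) lie on opposite sides.

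Among the other chemokine ligands 22 of 28 listed were tested. Of these 1 rose, Ccl22, 1 fell, Ccl12, and 20 were not called. Their median was -0.12. Of 21 receptors 16 were tested, and 3 rose, Ccr7, Ccr6 and Cxcr3, 1 fell, Ackr3, and 12 were not called. Their median was 1.50. Over all genes tested 1.41% rose and 4.57% fell. Ccr6, the Ccl20 receptor of B cells and some T cells, rose by 3.05 (SE 0.40, adjusted p = 0.00924), a call lost without E18 replicate 1 (adjusted p = 0.0677) or E18 replicate 2 (0.064), while its ligand Ccl20 was at 2.17 to 5.01 and was not tested. For the receptor list replicates 1 and 2 alone gave a median of 1.98, and replicate 3 alone gave 0.35. Lymphocyte lists moved with it, at 4.98 and 1.27 for T and natural killer cells and 5.20 and 0.99 for B and plasma cells, and their part in the receptor values was not tested.

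Of 26 listed genes of the pathways that induce chemokines 23 were tested. Of these 1 rose, Ifng, 0 fell, and 22 were not called, beside 5.98% called over all genes tested. Their median was 0.65. Nfkbiz, an NF-kappaB cofactor, was 13.89 to 14.02 in E18 and 13.80 to 14.08 in adult arrays (-0.05, adjusted p = 0.925). Of 9 tested genes that cut or bind chemokines 0 were called by limma and 1 had an unadjusted p under 0.05 (21.6% over all genes), with a median of -0.14. Adam10, which sheds Cx3cl1, was at 12.66 ± 0.12 in E18 and 12.14 in adult arrays on average (adjusted p = 0.338), and the protease Ctsc at 14.04 and 13.81 (adjusted p = 0.634).

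**Figure D5:**
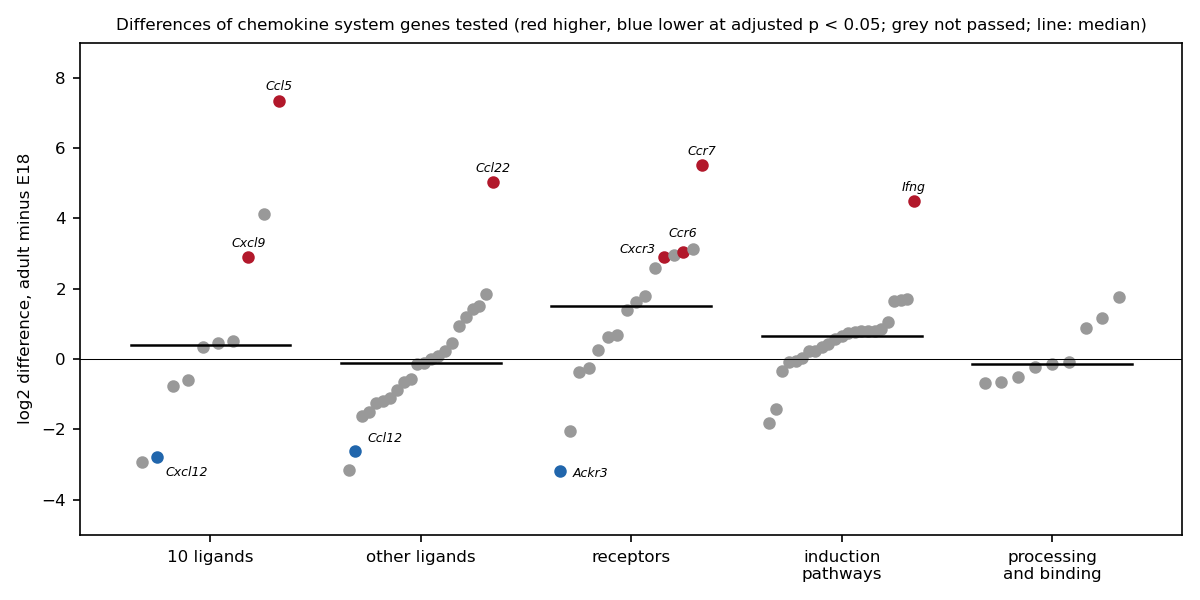
Log2 difference, adult minus E18, of each tested gene among the 10 ligands, the other ligands, receptors, induction pathways and the genes that process or bind chemokines, with the median of each list as a line. Called genes are named, and the medians are 0.41, -0.12, 1.50, 0.65 and -0.14 from left to right.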

How the data were processed

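The deposited values are linear signal intensity per probe set from 6 arrays, which, per the submitters' processing notes, came from the MAS5 method in Affymetrix Expression Console. Arrays were grouped by the labels, and none was left out. Values were log2 transformed with no pseudocount and no further normalization. Controls and probe sets with several symbols were left out, which left 34945 probe sets of 18193 genes, named from the array's gene table. Genes at or above their array's 40th percentile on at least 3 arrays, 13335, were tested with limma 3.58.1 in R 4.3.3 (intensity trend in the prior, Benjamini-Hochberg adjustment). The floor is a rank and not a measured background. The number of arrays limits the precision. The steps were tested on simulated data.

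Named genes are the 10 ligands, the called genes of each list (up to 4, or the 2 brightest where fewer than 2 passed) and the 3 closest profiles of each called ligand. Other genes were named after their values were seen. Members and lists were chosen with earlier results of these data known. The 3 motifs were chosen with the sequences in view. Replicate numbers were not treated as a pairing in the main fit. Same-numbered deviations correlated at 0.04, -0.14 and -0.06, which cannot exclude a pairing or a shared batch.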

Additional observations from a re-analysis of the deposited data

How the results depend on the processing

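Ccl5 kept its call and direction in all 17 alternatives. With 2 ligands higher and 1 lower in the fit reported, leaving out 1 array gave 1 to 3 higher and 0 to 1 lower, and averaging E18 replicates 1 and 2 into 1 sample gave 1 higher and 0 lower. The other listed chemokine genes, 5 higher and 2 lower, ranged from 1 to 15 higher and 0 to 8 lower over the arrays left out. They were 19 and 7 in replicates 1 and 2 alone, 1 and 0 with E18 replicates 1 and 2 averaged, 1 lower after quantile normalization and 8 higher with median centring. Over all genes 798 changed, 66 to 2770 with 1 array left out, 2996 in replicates 1 and 2 alone, 63 with the E18 pair averaged, and 492 with the replicate number as a block. Whether the replicate numbers are a pairing is not known. Under that replicate block Cxcl9 lost its call (adjusted p = 0.0595), Ccl17 gained one (0.0185) and the other ligands kept theirs or stayed without. The lymphocyte markers Prf1 (0.059) and Ncr1 (0.0893) lost theirs, and Ncr1 did so too with the third replicates as a batch term (0.0557).

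Ccl17 passed in 8 of 17 alternatives. Signs turned only for genes without a call. These were Cxcl2 (-0.15) and Nfkbia (-0.01) after quantile normalization, Nfkbiz with median centring (0.10), in replicates 1 and 2 (0.00) and without adult replicate 2 (0.01), and Cxcl1 with probe sets averaged (-0.04) and without adult replicate 1 (-0.03). Cxcl10 turned without adult replicate 1 (0.03), and Cx3cl1 in replicates 1 and 2 (-0.31) and without adult replicate 3 (-0.60). With 1 array left out the values ran from -0.03 to 0.73 for Cxcl1, -0.93 to 0.03 for Cxcl10, -0.60 to 0.83 for Cx3cl1 and -0.13 to 0.01 for Nfkbiz. The cause was not tested. The median difference of all genes was -0.17, and -0.05 and -0.02 under the other scalings. Cx3cl1 was not tested with probe sets averaged, since it no longer reached the floor. Signals near the floor, as for Cxcl9 at E18, have no measured size.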
